A study of Mus musculus with 9 samples.

Results

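The genes described here are 37 antioxidant, glutathione, iron and ferroptosis genes of the mouse, a list given by symbol and centred on the transcription factor NRF2. The members were found by matching each symbol to its Ensembl identifier. All 37 were among the 55421 genes of the count table, and all 37 passed the filter on low counts, which kept 20032 genes. No measured value entered the choice of members, although earlier results of these data were known when the list was made.

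RNA was sequenced from hippocampal cells sorted as live and positive for tdTomato, a red fluorescent protein that the mice carried in neurons. There were 3 groups of 3 libraries, each group given in the labels as 3 mice: wild-type mice with a sham operation, wild-type mice with mild traumatic brain injury (mTBI), and Tmsb4x conditional knockout mice with mTBI. The injury was 1 mild controlled cortical impact, and sham mice had the same procedures without the impact. All groups therefore share the tdTomato transgene and the trypsin dissociation. The labels give neither the driver of tdTomato or of the knockout, nor the age, the sex or the time after injury. There were no knockout mice with a sham operation, so whether the injury response depends on genotype could not be tested.

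NRF2, encoded by Nfe2l2, is held at low protein levels by KEAP1, which hands it to a ubiquitin ligase for degradation. Oxidants and electrophiles modify KEAP1, and NRF2 then accumulates and binds antioxidant response elements near genes of glutathione synthesis, thioredoxin recycling, detoxification and iron storage. Ferroptosis is a form of cell death driven by iron-dependent peroxidation of membrane lipids, which the glutathione-using enzyme GPX4 counters. In brain tissue, much of the NRF2 target expression and of the iron storage lies in glia, so the cell makeup of a preparation bears on these transcripts.

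Totals were 36452443 to 39590872 counts per library. Levels are in CPM, the usual scaling of counts to a common library total, over the tested genes and with TMM factors, and differences are in log2 units. The neuronal marker list summed to between 10410 and 12390 CPM, but oligodendrocyte markers summed to between 5235 and 9577 CPM and astrocyte markers to between 4236 and 5325 CPM, so the sorted cells were not neurons alone by their RNA. In bulk RNA, fewer cells of a type and less RNA per cell cannot be told apart. Tmsb4x, the targeted gene, stood at 297 to 899 CPM in wild-type mTBI and at 1.83 to 2.79 CPM in the knockout. The sham libraries, labelled wild-type, held 1.68 to 2.73 CPM, which is the knockout's level and goes against their genotype label. "Sham" below always means the libraries so labelled, and every direction against them carries that limit. Xist and Ddx3y mark wild-type mTBI replicate 3 as female and the remaining 8 libraries as male, and no fit held sex.

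The members varied little among the sham libraries and most in wild-type mTBI. Their median within-group SD was 0.0416 in sham, 0.182 in wild-type mTBI and 0.0752 in the knockout, on the log2 scale. Over all genes tested the medians were 0.0802, 0.189 and 0.143. Whether the sham libraries were 3 separate mice was not settled by the table. If they were not, the p-values against sham measure a technical spread, and those of the knockout comparison also draw on it through the shared fit.

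After injury, no member passed the test in wild-type mice, although most had a positive fitted difference. Of the 37 members, 0 were called by edgeR's quasi-likelihood test at an adjusted p under 0.05, where 0.509% of all genes tested were called. DESeq2 called 1 member, Gpx4, where it called 541 of the 20032 genes. Limma voom called 0 members, where it called 49 genes. The fitted difference was positive for 32 members and negative for 5, with a median of 0.17, and 53% of all genes were positive, with a median of 0.02. At an unadjusted p under 0.05, 8 members were higher (21.6%, against 7.45% of all genes) and 1 was lower (2.7%, against 5.79%). In 13 members every wild-type mTBI library lay above every sham library (35.1%, against 12.4% of all genes), and in 4 every one lay below (10.8%, against 11.5%).

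The members' values were uneven across the wild-type mTBI libraries. Wild-type mTBI replicate 1 was the highest of the 9 libraries for 21 of the 37 members. The members' median difference from the sham mean was 0.32 in that library, 0.02 in replicate 2 and 0.07 in replicate 3. Without replicate 1, 24 members were positive and 13 negative, where 50.4% of all genes were positive, and the members' median was 0.05. The sign of 10 members turned. At an unadjusted p under 0.05, 6 of the 37 members were then higher, a larger share than the 6.64% of all genes. On the lower side there was 1 of 37, a smaller share than the 5.82% of all genes. The same library had the largest mitochondrial share of counts, 5.57% against 4.32% to 5.16% in the others. It was also the library in which genes of small exon length stood highest. Across all genes, its difference from sham and exon length had a rank correlation of -0.289, against -0.0755 to 0.0441 in the other 8. Of the 13 members with under 2000 bases of exon, 13 had a positive fitted difference after injury, with a median of 0.18, against 0.09 for all genes that short. The longer 24 members held 19 positive differences and a median of 0.10, against 0.01 for all genes of that length. Exon length here is the union of all annotated exons, so some members counted as longer have short transcripts. The longest protein-coding transcript was 641 bases for Sod1, 1262 for Prdx5, 1494 for Fth1 and 1612 for Prdx2. The part of mitochondrial content and of length in the members' differences was not tested.

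**Figure D1:**
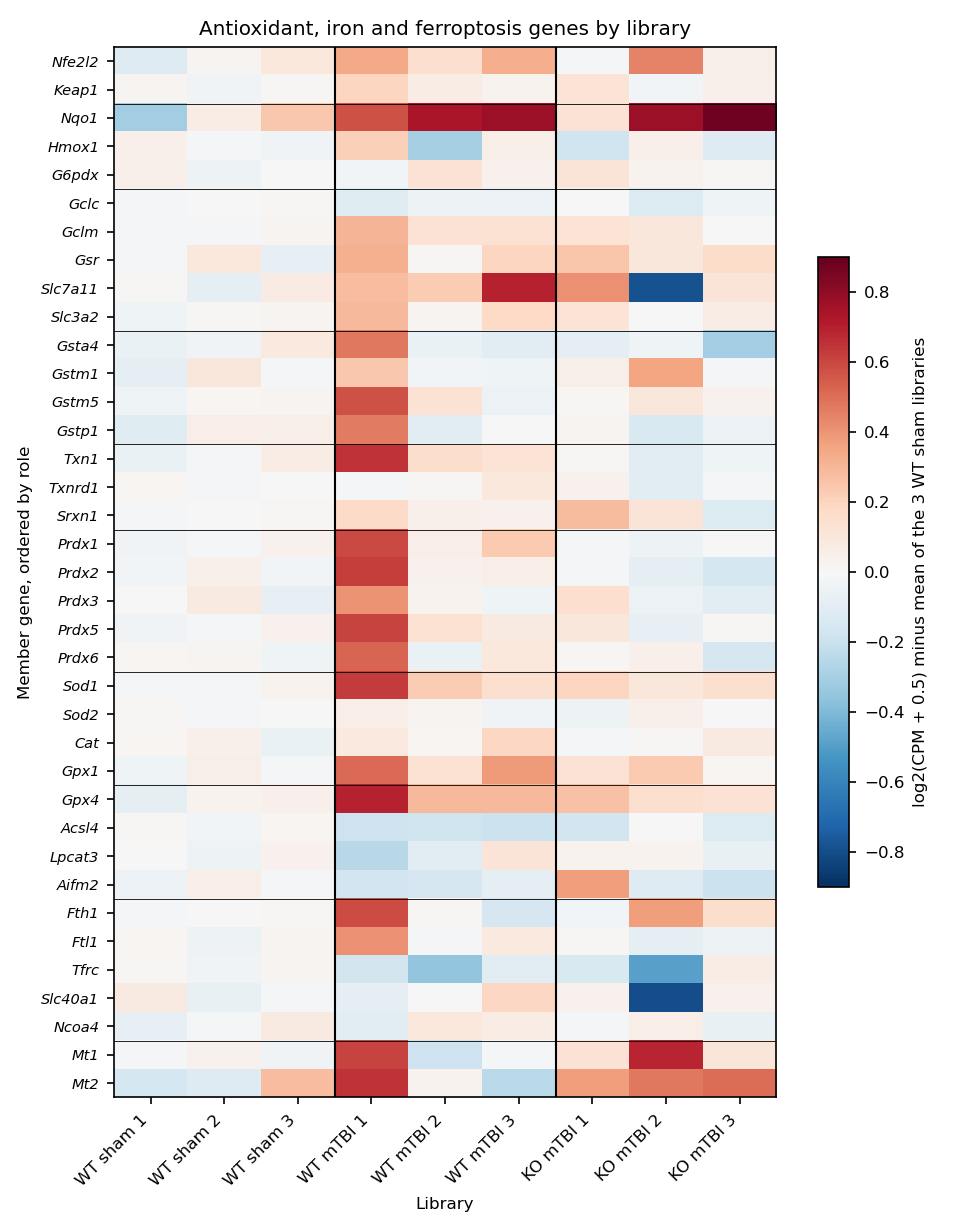
Difference of each member (rows, ordered by role) from the mean of the sham libraries in each of the 9 libraries (columns), as log2 CPM with a pseudocount of 0.5. Wild-type mTBI replicate 1 holds the highest value for 21 of 37 members.

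Set against injured wild-type mice, the injured knockout had no member past the test either, and most members had a negative fitted difference. By edgeR 0 of 37 were called, where 0.015% of all genes were called, and DESeq2 and limma voom also called 0. The fitted difference was negative for 27 members and positive for 10, with a median of -0.09, and 50.2% of all genes were positive, with a median of 0.00. At an unadjusted p under 0.05, 5 members were lower (13.5%, against 3.35% of all genes) and 0 higher (3.25% of all genes). Every knockout library lay below every wild-type mTBI library for 5 members (13.5%, against 4.86%) and above for 1 (2.7%, against 4.86%). This comparison uses the same wild-type mTBI libraries as the injury comparison, so the opposite signs are not 2 separate results. Without wild-type mTBI replicate 1 the median was -0.04 and the sign of 9 members turned. At an unadjusted p under 0.05, 3 of 37 members were then higher and 3 of 37 lower. Both are larger shares than the 3.23% and 2.82% of all genes. Without replicate 2 the median was -0.14.

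Between the injured knockout and sham the members were close to even. EdgeR called 0 of 37, where 0.0699% of all genes were called, and DESeq2 and limma voom called 0. A positive fitted difference was found for 22 members and a negative one for 15, with a median of 0.01, and 52.6% of all genes were positive, with a median of 0.01. At an unadjusted p under 0.05, 1 member, Nqo1, was higher (2.7%, against 4.58% of all genes) and 0 were lower (2.62% of all genes). Without wild-type mTBI replicate 1, which enters here only through the shared spread, 5 of 37 were higher (13.5%, against 6.32% of all genes). In that fit 0 were lower (4.69% of all genes). In 5 members every knockout library lay above every sham library (13.5%, against 8.75%), and in 0 every one lay below (8.4% of all genes). Sod1 and Gpx4 were the 2 members for which all 6 injured libraries of either genotype lay above all 3 sham libraries, a pattern shown by 3.64% of all genes. For 0 members all 6 lay below, as they did for 3.99% of all genes.

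**Figure D2:**
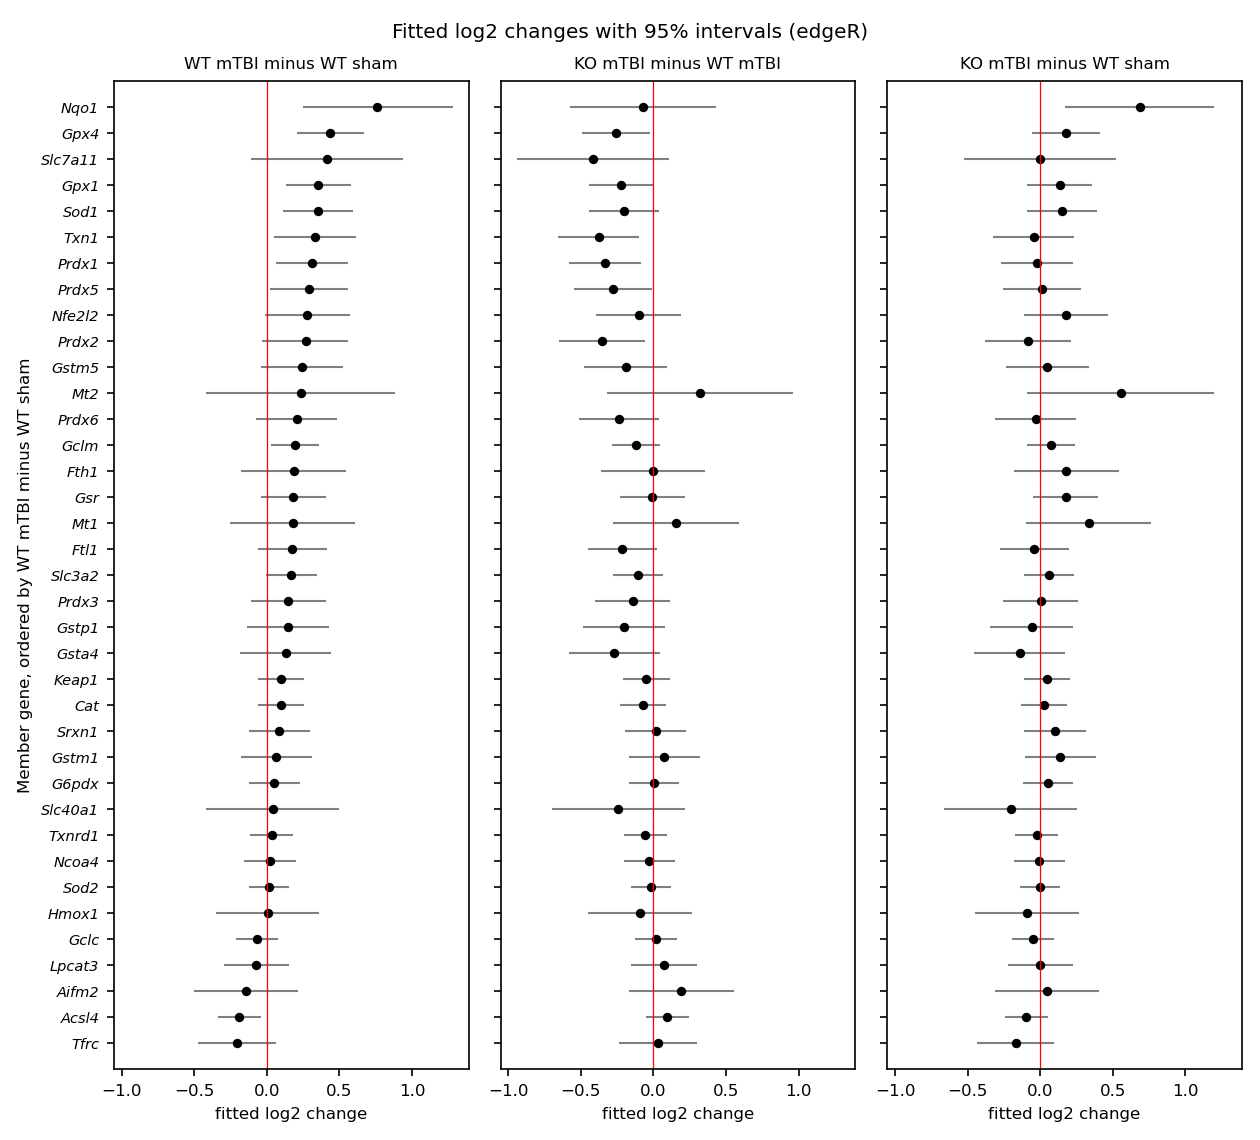
Fitted log2 difference of the members with its 95% confidence interval (horizontal axis) in the 3 comparisons. No member passed an adjusted p of 0.05, with the smallest values at 0.105 after injury, 0.732 in the knockout comparison and 0.463 between the injured knockout and sham.

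Levels per kilobase of exon ranked the members, with the union of all annotated exons as the length. Fth1, the ferritin heavy chain, stood at 633 CPM per kilobase over the 9 libraries. Gstm1 followed at 128, Mt1 at 126 and Gpx4 at 86.8. Gstm1 and Mt1 were neighbours whose libraries overlapped. At the other end were Nqo1 at 2.87, the ferroptosis suppressor Aifm2 at 1.64 and the iron exporter Slc40a1 at 0.931. The union length understates genes with long, rarely used exons, so this order holds for that length only and would differ by transcript length. Sod1 stood at 38.05 CPM per kilobase over 3970 bases, but its longest protein-coding transcript has 641. Slc40a1 has 9000 bases of exon and a longest protein-coding transcript of 3370, so its lowest place also depends on the length used.

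The letters TGACNNNGC, the core of the antioxidant response element bound by NRF2 with a small MAF protein, were searched on both strands from 250 bases before to 50 bases after each annotated start. Promoter sequences were those of RefSeq on GRCm38.p6, which held 31 of the 37 members. The letters were found for 10 of these 31 members (32.3%), for 13 of 66 other pathway genes (19.7%) and for 3781 of 27025 genes (14%). Of the 8 members higher at an unadjusted p under 0.05 after injury, Gpx4, Nqo1, Txn1, Prdx5 and Gpx1 had none in their windows. That says only that these letters are not there. Nfe2l2, G6pdx, Gstm5, Srxn1, Ncoa4 and Mt2 had a match but no such p, and are not shown. Shown are Gclm, Prdx1 and Sod1, which had matches and an unadjusted p under 0.05 after injury, and Txnrd1, which had a match and stayed near its sham level. Capitals mark the match, which in all 4 reads on the opposite strand. The stretches are chr3:122245403-122245451, chr4:116685446-116685494, chr16:90220686-90220734 and chr10:82859094-82859142, each on the plus strand.
Gclm: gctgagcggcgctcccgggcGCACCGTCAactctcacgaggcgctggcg
Prdx1: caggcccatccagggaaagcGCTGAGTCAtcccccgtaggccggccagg
Sod1: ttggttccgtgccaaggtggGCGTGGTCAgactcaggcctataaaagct
Txnrd1: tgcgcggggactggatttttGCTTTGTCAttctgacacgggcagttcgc

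Nfe2l2 and Keap1, the regulator and its sensor, had wild-type mTBI values above sham, and neither passed the test. Nfe2l2 (GRCm38 chromosome 2, 75675513 to 75704641) stood at 13.8, 15.2 and 15.97 CPM in sham, at 19.0, 16.6 and 18.9 in wild-type mTBI, and at 14.8, 20.5 and 15.5 in the knockout. All wild-type mTBI values lay above sham, and the knockout overlapped both. The injury difference was 0.28 (SE 0.133, adjusted p = 0.394 by edgeR). Keap1 stood at 53.4, 51.4 and 53.0 CPM in sham, at 60.1, 55.0 and 53.8 in wild-type mTBI, and at 57.3, 51.6 and 54.2 in the knockout. Here too every wild-type mTBI value lay above sham, and the knockout overlapped both. The injury difference was 0.10 (SE 0.0734), with a 95% interval from -0.06 to 0.26, and 0.05 without wild-type mTBI replicate 1. These are transcript levels, and NRF2 is regulated mainly at the protein level.

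Among the enzymes most often used as readouts of NRF2, Nqo1 and Hmox1 had unlike values. Nqo1, a quinone reductase (chromosome 8, 107388225 to 107403206), stood at 2.36, 3.23 and 3.72 CPM in sham, at 4.80, 5.43 and 5.55 in wild-type mTBI, and at 3.40, 5.55 and 6.04 in the knockout. Every wild-type mTBI library lay above sham, whereas knockout replicate 1 lay within it. The difference was 0.76 (SE 0.234, adjusted p = 0.206) after injury and 0.69 (SE 0.234, adjusted p = 0.463) between the injured knockout and sham, both by edgeR. The latter was 0.90 (adjusted p = 0.0484) when replicate 1 of both injured groups was left out, a fit that called 337 of 20389 genes. Hmox1, the inducible haem oxygenase, stood at 5.74, 5.48 and 5.42 CPM in sham, at 6.52, 4.41 and 5.78 in wild-type mTBI, and at 4.84, 5.73 and 5.09 in the knockout. The groups overlapped, with an injury difference of 0.01 and a 95% interval from -0.35 to 0.36. G6pdx, an X-linked enzyme that supplies NADPH, stayed between 25.2 and 28.6 CPM in all 9 libraries.

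Choroid plexus and ependymal transcripts were near sham in the same injured library as Nqo1. Their marker list of 10 genes summed to between 230.9 and 231.4 CPM in sham, to 4406, 6178 and 6064 in wild-type mTBI, and to 243.2, 4989 and 4088 in the knockout. Knockout replicate 1, the injured library with a sum near sham, was also the one with an Nqo1 level within sham. In wild-type mTBI, sums of 4406, 6178 and 6064 CPM stood beside Nqo1 levels of 4.80, 5.43 and 5.55 CPM. In knockout replicates 2 and 3, sums of 4989 and 4088 CPM stood beside Nqo1 levels of 5.55 and 6.04 CPM. The part of that cell type in the difference was not tested.

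Glutathione synthesis showed values of opposite sign in its rate-limiting enzyme. Gclc, the catalytic subunit of glutamate-cysteine ligase, stood at 63.5, 63.9 and 64.4 CPM in sham, at 59.1, 61.8 and 61.7 in wild-type mTBI, and at 64.1, 58.6 and 62.2 in the knockout. All wild-type mTBI values lay below sham, by 0.07 on average (log2 -0.07, SE 0.0658). Gclm, the modifier subunit, had an injury difference of 0.20 (SE 0.0756, adjusted p = 0.298 by edgeR). Its wild-type mTBI libraries lay above both other groups. Gsr, which regenerates reduced glutathione, stood at 18.7, 20.3 and 17.96 CPM in sham, at 23.8, 19.1 and 21.8 in wild-type mTBI, and at 22.6, 20.4 and 21.3 in the knockout. Its knockout libraries all lay above sham, with a difference of 0.18 (SE 0.102, adjusted p = 0.841).

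Cystine enters the cell through the exchanger made of SLC7A11 and SLC3A2. Slc7a11 (chromosome 3, 49892526 to 50443614) stood at 50.03, 46.7 and 52.3 CPM in sham, at 60.3, 58.1 and 80.5 in wild-type mTBI, and at 66.3, 28.6 and 53.8 in the knockout. The wild-type mTBI libraries lay above sham, and knockout replicate 2 had the lowest value of the 9. The difference was 0.42 (SE 0.238, adjusted p = 0.469) after injury and -0.42 (SE 0.238, adjusted p = 0.739) in the knockout comparison. The former was 0.25 without wild-type mTBI replicate 3. The latter was -0.25 without that library, -0.14 without knockout replicate 2 and -0.69 without knockout replicate 1. Slc3a2 had an injury difference of 0.17 (SE 0.0787, adjusted p = 0.385), and 0.10 without wild-type mTBI replicate 1.

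The 4 glutathione transferases, which couple glutathione to electrophiles, all overlapped between the groups. The injury differences were 0.13 for Gsta4, 0.06 for Gstm1, 0.24 for Gstm5 and 0.15 for Gstp1. They were -0.08, -0.03, 0.04 and -0.05, in the same order, without wild-type mTBI replicate 1. Wild-type mTBI replicate 1 held the highest value of Gsta4, Gstm5 and Gstp1, at 58.5, 128 and 103 CPM. Gstm1 was highest in knockout replicate 2, at 229 CPM. Of the 150-base windows of Gstp1, 41.8% also occur in Gstp2 or the pseudogene Gstp-ps, so its count is uncertain.

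Thioredoxin and peroxiredoxins pass electrons from NADPH to peroxides, and this pair of groups held 3 of the 4 members with the smallest p in the knockout comparison. Txn1, cytosolic thioredoxin, stood at 35.7, 36.9 and 39.1 CPM in sham, at 58.6, 41.5 and 40.5 in wild-type mTBI, and at 37.5, 34.6 and 36.2 in the knockout. Wild-type mTBI lay above both other groups, which overlapped. The difference was 0.33 (SE 0.127, adjusted p = 0.294) after injury and -0.38 (SE 0.127, adjusted p = 0.732) in the knockout comparison. These were 0.14 and -0.18 without wild-type mTBI replicate 1. Its reductase Txnrd1 stayed between 57.6 and 65.7 CPM, and Srxn1, which repairs overoxidised peroxiredoxins, between 65.7 and 87.5 CPM.

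All 5 peroxiredoxins had a positive injury difference and a negative knockout difference, with medians of 0.27 and -0.28, and 0 were called by edgeR in either. Without wild-type mTBI replicate 1 neither held for all 5: 4 were positive after injury, with a median of 0.05, and 4 were negative in the knockout comparison, with a median of -0.09. Prdx1 stood at 79.7, 81.1 and 84.0 CPM in sham, at 123, 84.9 and 96.02 in wild-type mTBI, and at 80.9, 79.2 and 81.3 in the knockout. Prdx2 stood at 115, 121 and 115 CPM in sham, at 180, 120 and 122 in wild-type mTBI, and at 115, 110 and 104 in the knockout. In both genes replicate 1 of wild-type mTBI stood well above the rest, and every knockout value lay below every wild-type mTBI value. The knockout difference was -0.33 (SE 0.114) for Prdx1 and -0.35 (SE 0.135) for Prdx2, each with adjusted p = 0.732. Without wild-type mTBI replicate 1 they were -0.17 and -0.13. Prdx3, the mitochondrial enzyme, had an injury difference of 0.15, Prdx5 of 0.29 and Prdx6 of 0.21. Without that library they were -0.0031, 0.11 and 0.02.

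Among enzymes that remove superoxide and peroxide, Sod1 and Gpx1 had wild-type mTBI values above sham, and Sod2 and Cat overlapped between the groups. Sod1, cytosolic superoxide dismutase (chromosome 16, 90220754 to 90226329), stood at 132, 133 and 137 CPM in sham, at 207, 157 and 148 in wild-type mTBI, and at 153, 144 and 148 in the knockout. All 6 injured libraries lay above sham. The difference was 0.35 (SE 0.11, adjusted p = 0.218) after injury and 0.15 (SE 0.11, adjusted p = 0.945) between the injured knockout and sham. With no filter on low counts its injury adjusted p was 0.0444, in a fit that called 676 of 34825 genes. Without wild-type mTBI replicate 1 the injury difference was 0.19 (adjusted p = 0.141). Gpx1 stood at 35.6, 38.0 and 36.2 CPM in sham, at 52.2, 40.2 and 47.9 in wild-type mTBI, and at 40.1, 43.3 and 37.0 in the knockout. Its injury difference was 0.35 (SE 0.101, adjusted p = 0.169), and the knockout overlapped both groups. Sod2, the mitochondrial dismutase, stayed between 150 and 162 CPM, and catalase, Cat, between 47.5 and 56.5 CPM.

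Gpx4, which reduces lipid hydroperoxides and restrains ferroptosis, had the smallest p of all members after injury. The gene (chromosome 10, 80047166 to 80056439) stood at 122, 132 and 133 CPM in sham, at 208, 157 and 157 in wild-type mTBI, and at 154, 142 and 141 in the knockout. The groups did not overlap: sham was lowest, the knockout next and wild-type mTBI highest. The difference was 0.44 (SE 0.107, adjusted p = 0.105) after injury, -0.26 (SE 0.106, adjusted p = 0.732) in the knockout comparison and 0.18 (SE 0.106, adjusted p = 0.845) between the injured knockout and sham. The injury difference passed the threshold by DESeq2 (adjusted p = 0.0115), with no filter (adjusted p = 0.00433) and without replicate 1 of both injured groups, where it was 0.29 (adjusted p = 0.0172). Those fits called 541 of 20032, 676 of 34825 and 523 of 20389 genes, in the same order. With wild-type mTBI replicate 1 alone left out the injury difference was 0.29 (adjusted p = 0.0605), and the knockout difference was -0.11. Of its 150-base windows, 36.9% also occur in the pseudogene Gpx4-ps2, which held 526 to 1069 counts and was highest in the same library. Knockout replicate 1, whose choroid plexus and ependymal sum was near sham, had a Gpx4 level above sham. This is 1 library, and the part of that cell type in the Gpx4 differences was not tested.

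In Acsl4 and Aifm2, 2 of the other 3 ferroptosis genes, every wild-type mTBI value lay below sham, as it did for 11.5% of all genes. Acsl4, which loads membranes with the polyunsaturated lipids that peroxidise (chromosome X, 142317993 to 142390535), stood at 93.4, 91.1 and 94.2 CPM in sham, at 81.5, 81.8 and 81.1 in wild-type mTBI, and at 82.5, 93.1 and 85.4 in the knockout. The wild-type mTBI values were close together, below every library of both other groups. The injury difference was -0.19 (SE 0.0676, adjusted p = 0.267), and the female library was not apart from its group. Aifm2, which encodes the ferroptosis suppressor FSP1, stood at 6.62, 7.19 and 6.83 CPM in sham, at 6.06, 6.14 and 6.48 in wild-type mTBI, and at 9.07, 6.32 and 5.96 in the knockout. Its highest and lowest values were both in the knockout, and its injury difference was -0.14 (SE 0.164, adjusted p = 0.72). Lpcat3, which inserts polyunsaturated chains into phospholipids, stayed between 17.96 and 23.2 CPM, with an injury difference of -0.07 that turned to 0.01 without wild-type mTBI replicate 1.

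Iron genes are regulated in large part after transcription, through hairpins in their messenger RNAs that bind iron regulatory proteins. In transcripts of GENCODE M21 (GRCm38), such hairpins were searched as a C, 5 bases, the loop CAGTGN and 5 bases that pair with the first 5, G-T pairs allowed. They were found in untranslated regions of 159 of 21901 protein-coding genes (0.726%). Among the members they were in the 5′ region of Fth1, Ftl1 and Slc40a1, and at 4 places in the 3′ region of Tfrc, the first of which is shown. The sites are chr19:9982732-9982760 on the plus strand, chr7:45459779-45459807 and chr1:45925465-45925493 on the minus strand, and chr16:32631219-32631247 on the plus strand. They are shown because binding there is known to block translation of ferritin and ferroportin and to stabilise the Tfrc transcript, and counts can show only the latter. Capitals mark the loop.
Fth1: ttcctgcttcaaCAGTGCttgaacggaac
Ftl1: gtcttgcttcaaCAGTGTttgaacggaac
Slc40a1: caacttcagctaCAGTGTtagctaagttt
Tfrc: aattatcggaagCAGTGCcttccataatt

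Ferritin transcripts overlapped between the groups. Fth1, the heavy chain, stood at 1993, 2019 and 2033 CPM in sham, at 3023, 2030 and 1815 in wild-type mTBI, and at 1984, 2620 and 2251 in the knockout. Its highest value, in wild-type mTBI replicate 1, and its lowest, in replicate 3, were in the same group. The injury difference was 0.18 (SE 0.164), and -0.07 without replicate 1. Ftl1, the light chain, stood at 27.2, 26.0 and 27.4 CPM in sham, at 35.9, 26.6 and 28.5 in wild-type mTBI, and at 27.1, 25.3 and 26.0 in the knockout. Of its windows 70.0% are shared with pseudogenes, and reads with several alignments were left out, so its level is uncertain.

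Tfrc, the transferrin receptor that imports iron, stood at 133, 129 and 134 CPM in sham, at 118, 104 and 124 in wild-type mTBI, and at 120, 94.2 and 139 in the knockout. The wild-type mTBI libraries lay below sham, and the knockout held both the highest and the lowest value. The injury difference was -0.20 (SE 0.122, adjusted p = 0.49). Slc40a1, encoding the iron exporter ferroportin, stood at 9.22, 8.24 and 8.59 CPM in sham, at 8.16, 8.67 and 9.94 in wild-type mTBI, and at 8.92, 4.78 and 8.91 in the knockout. Knockout replicate 2 was thus lowest of the 9 for Slc40a1, as it was for Slc7a11 and Tfrc. Ncoa4, the receptor for autophagy of ferritin, stayed between 40.1 and 45.9 CPM. Of its windows 36.5% are shared with Gm6768, so its count is uncertain too.

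Metallothioneins bind zinc and copper and scavenge oxidants. Mt1 stood at 138, 143 and 136 CPM in sham, at 212, 122 and 139 in wild-type mTBI, and at 153, 224 and 150 in the knockout. All knockout values lay above sham, with a difference of 0.33 (SE 0.196, adjusted p = 0.844), and it was highest in knockout replicate 2. Without that library the difference was 0.115. Markers of microglia and of infiltrating myeloid cells were also highest there, at 435 and 24.3 CPM in sum, and their part was not tested. Mt2 stood at 1.32, 1.38 and 1.96 CPM in sham, at 2.69, 1.58 and 1.22 in wild-type mTBI, and at 2.14, 2.33 and 2.39 in the knockout. Its knockout difference from sham was 0.55 (SE 0.295, adjusted p = 0.797). Annotated exons of Gm45774 cover 73.5% of Mt2, so its low count is uncertain.

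Among 80 other genes of the same pathways, 78 passed the filter, and 1 was called after injury, where 0.509% of all genes were called. This was Steap2, a metalloreductase that reduces iron and copper, which rose by 1.26 (SE 0.189, adjusted p = 0.0315 by edgeR). It stood at 10.6, 9.37 and 10.97 CPM in sham, at 20.2, 27.1 and 26.7 in wild-type mTBI, and at 16.4, 28.8 and 22.3 in the knockout. All 6 injured libraries lay above sham, knockout replicate 1 least so. The injured knockout differed from sham by 1.13 (SE 0.189, adjusted p = 0.0968). The call was lost in 5 of the 9 fits that left out 1 library, namely each sham library and wild-type mTBI replicates 2 and 3. After injury 63 of the 78 had a positive difference, with a median of 0.13, where 53% of all genes were positive.

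The next by p after injury were Ephx1, Gpx8, Prdx4 and Trf, none of which passed. Ephx1, microsomal epoxide hydrolase, stood at 24.4, 23.4 and 24.9 CPM in sham, at 37.5, 36.4 and 37.7 in wild-type mTBI, and at 24.8, 37.5 and 33.5 in the knockout (injury difference 0.62, SE 0.127, adjusted p = 0.0617). Gpx8, a peroxidase of the endoplasmic reticulum, stood at 3.97, 5.26 and 4.19 CPM in sham, at 9.13, 7.52 and 8.47 in wild-type mTBI, and at 3.77, 7.80 and 6.45 in the knockout. As with Nqo1, knockout replicate 1 stood within the sham range for Ephx1, and for Gpx8 it stood just below that range. It was the injured library whose choroid plexus and ependymal sum, 243.2 CPM, was near sham, and the part of that cell type was not tested. Prdx4 had an injury difference of 0.56 (adjusted p = 0.133) and Trf, transferrin, one of 0.42 (adjusted p = 0.143).

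**Figure D3:**
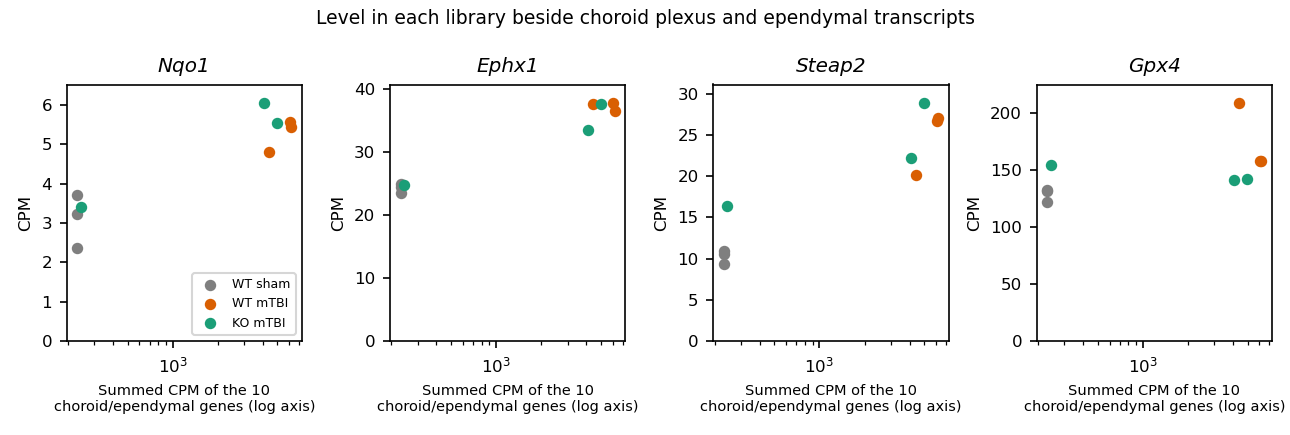
Level of Nqo1, Ephx1, Steap2 and Gpx4 (CPM, vertical axes) against the summed CPM of 10 choroid plexus and ependymal markers (log axis), 1 point a library, the 4 genes picked after their values were seen. Knockout replicate 1 has a marker sum of 243.2 CPM, against 4088 to 6178 CPM in the other 5 injured libraries.

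In the knockout comparison 0 of the 78 were called by edgeR, where 0.015% of all genes were called. At an unadjusted p under 0.05, 2 were higher (2.56%, against 3.25% of all genes) and 4 lower (5.13%, against 3.35%). Of the 78, 47 had a negative difference and 31 a positive one, where 50.2% of all genes were positive. Heph and Cp, ferroxidases that work with ferroportin, came first by p, at 0.99 (SE 0.308) and 0.99 (SE 0.334), each with adjusted p = 0.732. Without knockout replicate 2 they were 0.44 and 0.36. That library stood at 22.9 CPM of Heph against 5.80 to 9.50 elsewhere and 57.1 CPM of Cp against 12.5 to 22.5. Markers of infiltrating myeloid cells were also highest in that library, at 24.3 CPM in sum against 7.08 to 14.3 elsewhere, and those of microglia at 435 CPM against 302 to 358. The part of these cells was not tested. Glrx5, Cisd2 and Txn2, which encode proteins of iron-sulphur and thiol handling, followed at -0.33, -0.23 and -0.23. They were -0.17, -0.13 and -0.09 without wild-type mTBI replicate 1. Between the injured knockout and sham 0 of the 78 were called by edgeR, where 0.0699% of all genes were called. At an unadjusted p under 0.05, 11 were higher (14.1%, against 4.58% of all genes) and 1 lower (1.28%, against 2.62%). A positive difference was found for 54 of the 78, where 52.6% of all genes were positive. After Steap2 came Ephx1 at 0.40, Mafk, a small MAF partner of NRF2, at 0.32, Txnip, an inhibitor of thioredoxin, at 0.47, and Prdx4 at 0.41. Without knockout replicate 2, Ephx1 was at 0.26 and Txnip at 0.285.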

How the data were processed

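The authors deposited 1 table of raw counts per Ensembl gene for the 9 libraries. Per the file headers it was made with featureCounts 2.0.6 over exons of Ensembl release 98 on GRCm38. The command had no option for read pairs, strand or multi-mapping reads, so the defaults applied: each mate was counted, either strand was accepted, and reads with several alignments were not counted. Per the submitters' processing notes, the tools included HISAT2, SAMtools, Trim Galore, FastQC and MultiQC, with genome mm10. Symbols, positions and exon lengths came from GENCODE M21, which matched 55240 of 55421 genes. Genes were filtered with filterByExpr, scaled by TMM, and compared by the quasi-likelihood test of edgeR 4.0.16, two-sided, in 1 fit of all 9 libraries (6 residual and 5.12 prior degrees of freedom), with Benjamini-Hochberg adjustment over the 20032 genes tested. Every adjusted p is from that test unless another is named. The test was run on simulated data first. For the injury comparison it called 1 of 50 genes changed 1.25-fold (2%), 24 of 50 changed 1.5-fold (48%) and 45 of 50 changed 2-fold (90%). It also called 7 unchanged genes. In the simulation changes near 1.25-fold mostly went uncalled, so the lack of called members does not show that none changed. Each simulated gene had the same dispersion in every group, only genes of higher counts were changed, and no library was shifted as a whole. The members' spread differed between groups, so these shares are only a rough guide for them.

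The members, the other pathway genes and the marker lists were chosen with earlier results of these data known, so no list was tested. Named with values in every library were 15 anchor genes, and the members of smallest p: 6 after injury and 4 in each other comparison. Up to 5 other pathway genes were named per comparison. Alternatives were RLE factors, library totals alone, DESeq2 1.42.0, limma 3.58.1 voom, no filter, a filter of 1 CPM in 3 libraries, only the 6 libraries compared, a replicate block, halved counts, each library left out, and replicate 1 of both injured groups left out.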

Additional observations from a re-analysis of the deposited data

How the results depend on the processing

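None of the 37 members was called in any fit leaving out 1 library. After injury, DESeq2 called 1 member, no filter 2, and leaving out replicate 1 of both injured groups 1, and the last also called 1 member between the injured knockout and sham. Genes called after injury numbered 541 by DESeq2, 49 by limma voom, 676 with no filter, 64 with the stricter filter, 253 with the 6 libraries compared, 523 without both replicates 1, and 5 to 252 without 1 library, against 102. In the knockout comparison they numbered 19 by DESeq2, 68 with no filter, 1 with 6 libraries, 24 without both, and 2 to 7 without 1 library, against 3. Between the injured knockout and sham they numbered 226 by DESeq2, 387 with no filter, 71 with 6 libraries, 337 without both, and 2 to 128 without 1 library, against 14. Other pathway genes called after injury, in place of 1, were 6 by DESeq2, 6 with no filter, 3 with 6 libraries, 3 without both and 0 to 3 without 1 library. In the knockout comparison they were 2 with no filter, and between the injured knockout and sham 1 by DESeq2, 4 with no filter, 3 without both and 0 to 2 without 1 library.

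The median of the members ran from 0.05 to 0.23 after injury, from -0.142 to -0.0394 in the knockout comparison (-0.0583 without both replicates 1) and from -0.00214 to 0.0349 between the injured knockout and sham, leaving out 1 library. Gpx4 after injury was 0.43 by DESeq2 and 0.44 with no filter, and 0.29 without both; Sod1 with no filter was 0.35; Nqo1 between the injured knockout and sham was 0.90 without both. The labels do not say whether the replicate numbers pair the samples. After removal of group means, same-numbered libraries correlated by -0.0948 to 0.0739 and the others by -0.127 to 0.153. With 3 libraries per group these values cannot settle whether samples were paired. With the replicate number as a block, 0 members and 107, 3 and 13 genes were called in the 3 comparisons.

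Leaving out 1 library turned the sign of 14 of the 37 members after injury, 17 in the knockout comparison and 13 between the injured knockout and sham. Each setting was followed in full for the 15 anchor genes and for each comparison's members of smallest p. The turned values among these follow, none of them called, and the cause was not tested. Hmox1 after injury was -0.0053 with RLE factors, -0.0052 by DESeq2, -0.0131 by limma voom, -0.0096 with the stricter filter, -0.0044 with 6 libraries, -0.000353 with the replicate block, -0.0013 with counts halved, -0.12 without both, and -0.12 to 0.14 without 1 library. Fth1 in the knockout comparison was 0.0024 with RLE factors and DESeq2, 0.0011 with library totals, 0.0236 by limma voom, 0.0080 with the stricter filter, 0.0152 with the replicate block, 0.34 without both, and -0.14 to 0.25 without 1 library. Without both, the injury difference was -0.067 for Fth1, -0.0951 for Mt1 and -0.152 for Mt2, and the knockout difference 0.0206 for Nfe2l2, 0.0764 for Nqo1, 0.0851 for Hmox1, -0.0328 for Gclc and -0.0403 for Aifm2. Aifm2 between the injured knockout and sham was -0.17 without both. Leaving out 1 library gave, after injury, -0.0671 to 0.317 for Fth1, -0.0521 to 0.0999 for Slc40a1, -0.0952 to 0.319 for Mt1 and -0.152 to 0.447 for Mt2. In the knockout comparison it gave -0.234 to 0.138 for Nqo1, -0.226 to 0.0341 for Hmox1, -0.0125 to 0.0544 for Gclc, -0.021 to 0.305 for Aifm2, -0.101 to 0.173 for Tfrc, -0.383 to 0.000363 for Slc40a1 and -0.0547 to 0.429 for Mt1. Between the injured knockout and sham it gave -0.27 to 0.27 for Slc7a11, -0.165 to 0.161 for Aifm2 and -0.343 to 0.0337 for Slc40a1.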
